A study of Homo sapiens and Homo sapiens
Mus musculus and Mus musculus with 200 samples.

Results

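The elements described here are distal stretches of open chromatin in human cranial neural crest cells that carried TWIST1 and AP2a together. Each element is 1 row of the table of ATAC intervals over which the authors counted H3K27ac ChIP-seq reads. A row was a member where it overlapped, by at least 1 bp, a TWIST1 peak in both replicates of untagged (WT) cells at 0 h of dTAGV-1 and an AP2a peak in both AP2a lists, made with antibodies from Novus Bio and Cell Signaling. Its midpoint also had to lie more than 1 kb from every GENCODE transcript start. The rule found 4821 members among 213151 rows, or 2.26% of all rows. They were 14.2% of the 34036 distal rows with TWIST1 in both replicates and 65.3% of the 7385 distal rows with AP2a in both lists. At the distance limit, the nearest member lay 1001 bp from a start and the farthest row left out lay 1000 bp from one. Members were not independent of each other: 726 had another member within 2 kb, and 486 shared their strongest TWIST1 summit with another member.

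The cells were differentiated in culture from H9, a human embryonic stem cell line, and H3K27ac was measured in 6 lines at 0, 3 and 24 h of 500 nM dTAGV-1, with 2 libraries in each of the 18 groups. dTAGV-1 is a small molecule that recruits a ubiquitin ligase to a tagged protein, which is then degraded. The lines were WT, which carries no tag, and TWIST1FV, ALX1FV, PRRX1FV and MSX1FNV, named for the tagged factor, together with ALX1FV ALX4-, in which ALX4 was also knocked out. The AP2a lists came from WT cells with no treatment named, 1 library for each antibody. Both TWIST1FV libraries came from clone c64 and both MSX1FNV libraries from clone c93/69, whereas the replicates of ALX1FV, PRRX1FV and ALX1FV ALX4- were different clones. A difference between 2 lines therefore cannot be told apart from a difference between clones. The labels do not say whether replicates were separate differentiations, so p-values measure the spread between these libraries, which may be technical.

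TWIST1 is a basic helix-loop-helix factor that binds E-box sequences as a dimer and is required for the cranial mesenchyme. AP2a, the product of TFAP2A, binds a GC-rich palindrome and acts early in the neural crest and later in the face. ALX1, ALX4, PRRX1 and MSX1 are homeodomain factors of the facial mesenchyme. H3K27ac, the acetylation of lysine 27 of histone H3, marks active enhancers and promoters, and its loss at a distal element is commonly read as loss of enhancer activity.

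The windows below show the sequence under the TWIST1 summit, with 100 bases to either side, of elements on which the results turn. They are from hg38, plus strand, 5′ to 3′. Capitals mark E-boxes, the AP2 palindrome GCCNNNGGC and the composite motif. The E-box forms searched were CATCTG with its reverse complement CAGATG, and the palindromes CAGCTG and also CATATG. The composite motif is such an E-box followed after 4 bases by the homeodomain core TAATTA, or by the same core with its last base replaced, TAATTG. All motifs were searched on both strands, and the E-box of a composite motif also counts as an E-box. The first pair lost the most H3K27ac in TWIST1FV at 24 h and the next pair gained the most. The fifth and sixth had the strongest TWIST1 and AP2a peaks, the KCNMA1 window holds a composite motif, and the SYN3 window holds an E-box and an AP2 palindrome. The SYN3 element was chosen after its values were seen, as the most strongly acetylated of its kind.
near PLEKHG7, chr12:92655191-92655391: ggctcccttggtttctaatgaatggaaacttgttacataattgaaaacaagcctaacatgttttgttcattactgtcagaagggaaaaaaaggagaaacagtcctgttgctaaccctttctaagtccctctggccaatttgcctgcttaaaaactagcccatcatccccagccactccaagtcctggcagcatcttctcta
near ENSG00000273098, chr17:13158788-13158988: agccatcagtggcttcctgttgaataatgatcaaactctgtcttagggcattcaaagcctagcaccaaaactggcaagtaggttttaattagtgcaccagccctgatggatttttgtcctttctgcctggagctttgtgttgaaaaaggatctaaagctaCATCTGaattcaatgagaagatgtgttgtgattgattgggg
near LINC02205, chr15:70433136-70433336: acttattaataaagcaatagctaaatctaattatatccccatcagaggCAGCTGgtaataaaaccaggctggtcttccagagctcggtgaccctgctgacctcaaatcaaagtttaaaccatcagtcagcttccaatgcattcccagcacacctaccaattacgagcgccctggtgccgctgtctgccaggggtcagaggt
MCF2L intron, chr13:113022954-113023154: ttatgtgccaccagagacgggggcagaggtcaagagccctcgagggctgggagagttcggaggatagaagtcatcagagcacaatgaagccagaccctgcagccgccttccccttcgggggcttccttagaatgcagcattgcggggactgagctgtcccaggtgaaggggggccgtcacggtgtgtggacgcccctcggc
near RNA5SP76, chr1:219792411-219792611: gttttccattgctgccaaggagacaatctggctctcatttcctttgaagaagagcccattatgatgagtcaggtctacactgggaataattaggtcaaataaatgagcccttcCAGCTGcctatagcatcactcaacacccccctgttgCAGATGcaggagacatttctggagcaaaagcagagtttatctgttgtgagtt
IGF2BP1 intron, chr17:48995931-48996131: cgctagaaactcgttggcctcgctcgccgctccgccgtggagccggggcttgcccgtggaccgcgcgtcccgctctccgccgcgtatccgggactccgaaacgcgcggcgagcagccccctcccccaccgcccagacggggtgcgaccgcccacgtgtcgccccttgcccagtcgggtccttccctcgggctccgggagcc
KCNMA1 intron, chr10:76962996-76963196: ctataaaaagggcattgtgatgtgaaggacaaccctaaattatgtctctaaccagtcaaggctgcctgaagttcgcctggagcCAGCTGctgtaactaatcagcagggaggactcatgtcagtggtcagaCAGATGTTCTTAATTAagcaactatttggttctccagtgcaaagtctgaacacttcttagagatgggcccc
SYN3 intron, chr22:32957365-32957565: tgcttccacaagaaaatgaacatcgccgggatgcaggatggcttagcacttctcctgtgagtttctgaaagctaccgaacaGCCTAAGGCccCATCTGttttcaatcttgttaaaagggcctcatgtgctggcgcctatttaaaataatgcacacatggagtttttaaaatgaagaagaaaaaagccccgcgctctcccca
The PLEKHG7, MCF2L and IGF2BP1 windows hold none of these letters in the form searched. The PLEKHG7 window lies outside the element that lost the most H3K27ac. The strongest TWIST1 summit of that element falls in the member beside it, at chr12:92654970-92655470. The RNA5SP76 window holds 2 E-boxes and the KCNMA1 window holds 2, of which 1 belongs to its composite motif.

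E-boxes were as common at these summits as at other TWIST1 summits, and AP2 palindromes were more common. An E-box lay within the window of 201 bases around the TWIST1 summit in 68.0% of members, in 69.5% of distal rows with TWIST1 and no AP2a peak, and in 65.9% of all rows with a TWIST1 peak. CATCTG or its reverse complement was present in 44.7% of members. GCCNNNGGC was present at the TWIST1 summit in 19.8% of members, against 5.28% of rows with TWIST1 and no AP2a and 10.7% of all rows with a TWIST1 peak. The composite motif was present in 46 members, or 0.954%, against 1.66% of rows with TWIST1 and no AP2a. A pair of E-boxes 5 bp apart was present in 58 members, or 1.203%. Around the AP2a summit of the Novus Bio list, 28.9% of members held GCCNNNGGC, below the 35.9% of distal rows with AP2a and no TWIST1 and the 39.7% of all rows with an AP2a peak. An E-box lay at that AP2a summit in 51.6% of members and in 24.6% of rows with AP2a and no TWIST1. In windows of 501 bases at the row centre, 78.0% of members and 63.6% of all rows held an E-box, and 35.2% of members and 21.7% of all rows held GCCNNNGGC. These shares describe letters, not bound sites.

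The peaks that chose the members were strong for TWIST1 and moderate for AP2a. The authors' TWIST1 fold enrichment in WT replicate 1 had a median of 26.6 over members and 12.8 over rows with TWIST1 and no AP2a. The authors' AP2a fold enrichment in the Novus Bio list had a median of 7.89 over members and 6.24 over rows with AP2a and no TWIST1. The TWIST1 and AP2a summits were 85 bp apart at the median, 56.1% of members had them within 100 bp, and 492 members had them more than 500 bp apart. Members lay in introns in 57.5% of cases, between genes in 37.4%, in UTRs in 2.37% and in other exon sequence in 2.74%. Median GC content of the central window was 50.9%, between the 42.5% of rows with TWIST1 and no AP2a and the 59.1% of rows with AP2a and no TWIST1.

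The members were among the most acetylated rows of the table. Their median H3K27ac in WT at 0 h was 24.97 CPM per kb (counts scaled to the library total, per kb of row), against 6.25 for rows with TWIST1 and no AP2a, 3.28 for rows with AP2a and no TWIST1, 1.61 for distal rows with neither and 2.17 for all rows. Of the members, 59.9% stood in the top 10% of all rows by mean log2 CPM over the 36 libraries. The 3 highest were an intronic element of RASA3, which encodes a Ras GTPase-activating protein (chr13:114064162-114065712), one upstream of CDC42EP4, which encodes an effector of the GTPase CDC42 (chr17:73323614-73325914), and one in an intron of IGF2BP1, which encodes an RNA-binding protein (chr17:48995164-48996788).

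Library totals over all rows ranged from 5137169 to 9173063 counts. Promoter-proximal H3K27ac of 9 neural crest genes, among them TFAP2A, TFAP2B, TWIST1, SOX9 and NR2F1, was 39.1 to 122 CPM per kb in WT at 0 h. The measured neural ectoderm genes, among them SOX1, SOX2 and PAX6, stood at 0.197 to 2.72, the epithelial genes at 1.06 to 10.4, and CDH5, KDR and TAL1 of endothelium and blood at 0.456 to 7.17. Of the pluripotency genes, ZFP42 stood at 1.36 and DPPA4 at 9.64, while LIN28A was at 148, and POU5F1 and NANOG had no row near a start in the table.

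The share of all H3K27ac counts that fell in the members dropped in TWIST1FV after dTAGV-1 and moved little in the other lines. In TWIST1FV the members held 14.4% and 13.2% of counts in replicates 1 and 2 at 0 h, 12.5% and 11.0% at 3 h, and 11.8% and 10.3% at 24 h. Replicate 2 was lower than replicate 1 at each time, and every 24 h library lay below both 0 h libraries. In WT the 6 libraries lay between 13.1% and 13.4%. ALX1FV ranged from 11.99% to 13.2%, MSX1FNV from 11.9% to 12.8%, PRRX1FV from 11.6% to 12.1%, and ALX1FV ALX4- from 11.0% to 11.8%. The largest move of a mean among these 4 edited lines was in ALX1FV ALX4-, from 11.6% at 0 h to 11.1% at 24 h, where both 24 h libraries lay below both 0 h libraries.

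**Figure D1:**
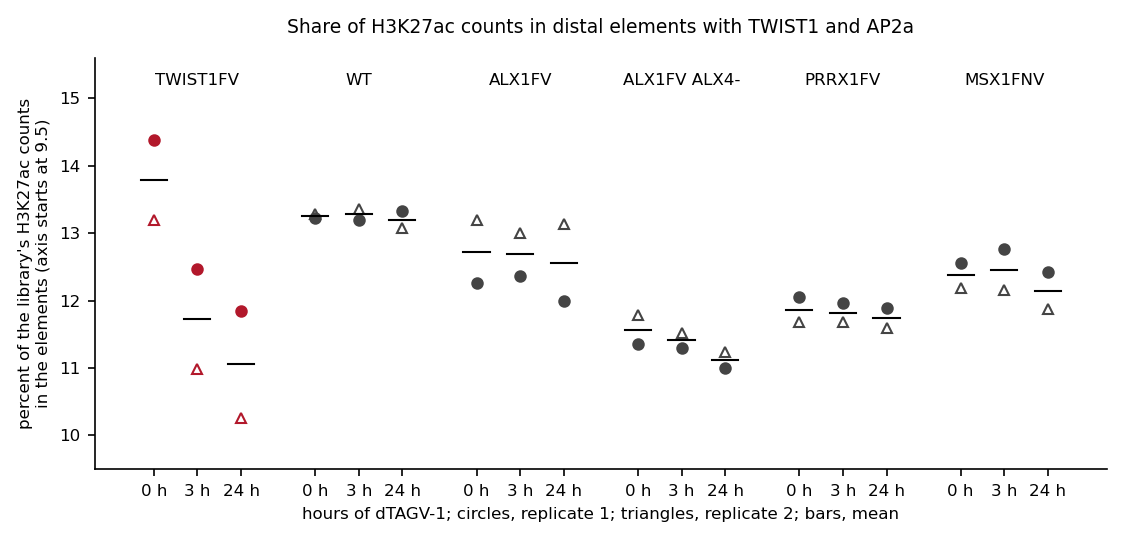
Percent of each library's H3K27ac counts that lay in the 4821 elements (y axis, starting at 9.5%) by line and hours of dTAGV-1 (x axis), with circles for replicate 1, triangles for replicate 2 and bars for the mean of 2. The TWIST1FV mean drops from 13.8% at 0 h to 11.1% at 24 h, while the 6 WT libraries lie between 13.1% and 13.4%.

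TWIST1 was no longer called at most of these elements by 3 h in TWIST1FV. At 0 h, TWIST1 peaks of the tagged line overlapped 91.6% of members in replicate 1 and 85.8% in replicate 2. At 3 h they overlapped 445 members (9.23%) and 403 (8.36%), against 0.695% and 0.658% of distal rows with TWIST1 and no AP2a, and 0.401% and 0.360% of all rows. In WT at 3 h, TWIST1 peaks still overlapped 96.3% and 97.4% of members. Peaks were called in each library separately, so a lost overlap can also come from a weaker library.

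H3K27ac fell at many members within 3 h of TWIST1 depletion and at more by 24 h. Of 4758 members with enough counts to be tested, 906 (19.0%) fell and 83 rose at 3 h in edgeR (quasi-likelihood test, Benjamini-Hochberg adjustment over all rows, false discovery rate or FDR of 0.05). Over all rows tested, 4.28% fell and 1.01% rose. At 24 h, 1671 members (35.1%) fell and 218 rose, against 9.49% and 4.28% of all rows. The median log2 fold change of the members was -0.35 at 3 h and -0.53 at 24 h, where that of all rows was 0.02 and 0.03. Both contrasts share the 0 h libraries. Tested directly, 139 members were lower and 20 higher at 24 h than at 3 h, where 0.891% of all rows differed (0.601% lower and 0.289% higher). Without replicate 1 at 0 h the count at 3 h dropped from 989 members changed in either direction to 530. The direct comparison of 24 h with 3 h gave 159 members, and 71, 310 and 398 without replicate 2 at 24 h, replicate 1 at 24 h and replicate 2 at 3 h. Fewer acetylated cells and less acetylation in each cell cannot be told apart in these bulk libraries.

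In WT cells, which have no tag, no member passed the test at 3 h or at 24 h among 4768 tested, and 0 of all rows did. At an unadjusted p under 0.05, 116 members differed at 3 h and 112 at 24 h, and DESeq2 also called 0 at each time. The change with dTAGV-1 differed between TWIST1FV and WT in 706 of 4806 members at 3 h, of which 679 were more negative in TWIST1FV, against 2.35% of all rows (2.1% more negative and 0.253% more positive). At 24 h it differed in 1407, of which 1321 were more negative, against 6.07% of all rows (4.92% and 1.16%). Without TWIST1FV replicate 1 at 0 h the 3 h count was 470.

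The element whose loss was largest at 24 h lies between genes at chr12:92655605-92656105, 46988 bp upstream of a PLEKHG7 start. Its counts in TWIST1FV were 347 and 317 at 0 h, 46 and 42 at 3 h, and 14 and 6 at 24 h, a log2 change of -2.88 ± 0.29 (SE) at 3 h and -5.17 ± 0.35 at 24 h (edgeR adjusted p = 1.03e-07). In WT the 6 libraries held 216 to 290 counts. The 0 h, 3 h and 24 h libraries of TWIST1FV did not overlap. A second member beside it, at chr12:92654970-92655470, overlaps the same TWIST1 peak and dropped from 367 and 302 counts to 10 and 16 at 24 h, so the pair is 1 site rather than a repeat of it. At chr17:13158694-13159194, 63036 bp from ENSG00000273098, counts were 302 and 315 at 0 h, 28 and 32 at 3 h, and 12 and 8 at 24 h (log2 change -3.32 ± 0.28 and -5.05 ± 0.33). WT held 159 to 219 counts there.

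Other elements lost nearly all of their H3K27ac by 3 h. In an intron of DSCAM, which encodes a cell adhesion molecule of the nervous system (chr21:40340319-40341232), counts were 350 and 420 at 0 h, 36 and 46 at 3 h, and 46 and 30 at 24 h. There the log2 change was -3.18 ± 0.26 at 3 h and -3.45 ± 0.26 at 24 h. An intronic element of STEAP1B (chr7:22635256-22636179) went from 448 and 354 counts to 52 and 38 and then 32 and 22. Upstream of NYAP2, which encodes a neuronal adaptor of PI3 kinase (chr2:225317973-225318838), counts went from 278 and 367 to 35 and 40 and then 48 and 36. At DSCAM and NYAP2 the 24 h libraries did not lie below both 3 h libraries.

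Further elements held fewer counts at 3 h and fewer again at 24 h. At chr6:4253204-4254339, between genes and 64656 bp from ENSG00000216307, counts were 485 and 534 at 0 h, 122 and 133 at 3 h, and 22 and 16 at 24 h (log2 change -1.95 ± 0.21 and -4.85 ± 0.26). In an intron near the start of ETS1, a transcription factor gene of the early crest (chr11:128502663-128503977), counts were 528 and 503, then 176 and 178, then 78 and 62 (log2 change -1.51 ± 0.20 and -3.004 ± 0.22). The KCNMA1 element with a composite motif, in an intron of a potassium channel gene (chr10:76962849-76963349), held 259 and 210, then 42 and 32, then 18 and 14. Its log2 change was -2.63 ± 0.32 at 3 h and -4.00 ± 0.35 at 24 h, and WT held 230 to 331 counts. The largest losses at 24 h also included elements at chr15:60886977-60887477, in an intron 38159 bp from ENSG00000273792 (-4.74 ± 0.54), and in an intron 9122 bp from CASC6 at chr6:91660297-91660797 (-4.62 ± 0.46).

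Among the most acetylated members described here, some fell at 24 h and others did not pass the test. The RASA3 element held 2488 and 2868 counts at 0 h and 3414 and 2583 at 24 h (log2 change 0.05 ± 0.11, edgeR adjusted p = 0.857). The CDC42EP4 element dropped from 2315 and 2588 counts to 1185 and 1107 at 3 h and 1383 and 898 at 24 h (-1.05 ± 0.15 and -1.23 ± 0.15). The IGF2BP1 element, which had the strongest AP2a peak, held 1699 and 2206 counts at 0 h and 2266 and 2190 at 24 h (0.09 ± 0.11, adjusted p = 0.684). The SYN3 element of the printed windows, in an intron of a synapsin gene (chr22:32956815-32958472), went from 1446 and 1457 counts to 836 and 744 and then 1021 and 678 (-0.84 ± 0.16 and -0.90 ± 0.16).

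Elements that rose were fewer than those that fell. At 24 h 4.58% of tested members rose, a share close to the 4.28% of all rows. From the lowest to the highest of 4 groups of members by mean log2 CPM, 24, 49, 68 and 77 rose (2.1%, 4.07%, 5.64% and 6.39%). Distal rows with neither factor in the same ranges rose in 4.99%, 22.2%, 30.4% and 18.2% of cases, with 33 rows tested in the highest range. The element 72039 bp from LINC02205 (chr15:70433028-70434749) held 12 and 22 counts at 0 h, 82 and 46 at 3 h, and 281 and 80 at 24 h (log2 change 1.98 ± 0.52 and 3.27 ± 0.50). The 24 h libraries differed widely from each other there. The 3 h call there was lost without replicate 1 at 0 h or at 3 h (adjusted p = 0.0939 and 0.0583). An intronic element of MCF2L, which encodes a guanine nucleotide exchange factor (chr13:113022281-113023567), held 116 and 159 counts at 0 h, 380 and 417 at 3 h, and 974 and 698 at 24 h (1.59 ± 0.18 and 2.50 ± 0.19), while WT held 134 to 209. One in an intron of ADAMTSL1, which encodes a secreted matrix protein (chr9:17949143-17950216), went from 109 and 156 to 274 and 233 and then 789 and 685 (1.00 ± 0.19 and 2.38 ± 0.19). Its WT libraries held 262 to 416 counts, above the TWIST1FV libraries at 0 h and below them at 24 h. Upstream of IGF2BP2, another RNA-binding protein gene (chr3:185847588-185848088), counts went from 31 and 42 to 208 and 221 at 24 h (2.46 ± 0.28). The authors' TWIST1 fold enrichment at MCF2L, IGF2BP2 and the rising elements near ENSG00000286568 and ENSG00000227712 was 4.80 to 6.04, below the lower quartile of members, and at LINC02205 and ADAMTSL1 it was 36.1 and 33.9.

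**Figure D2:**
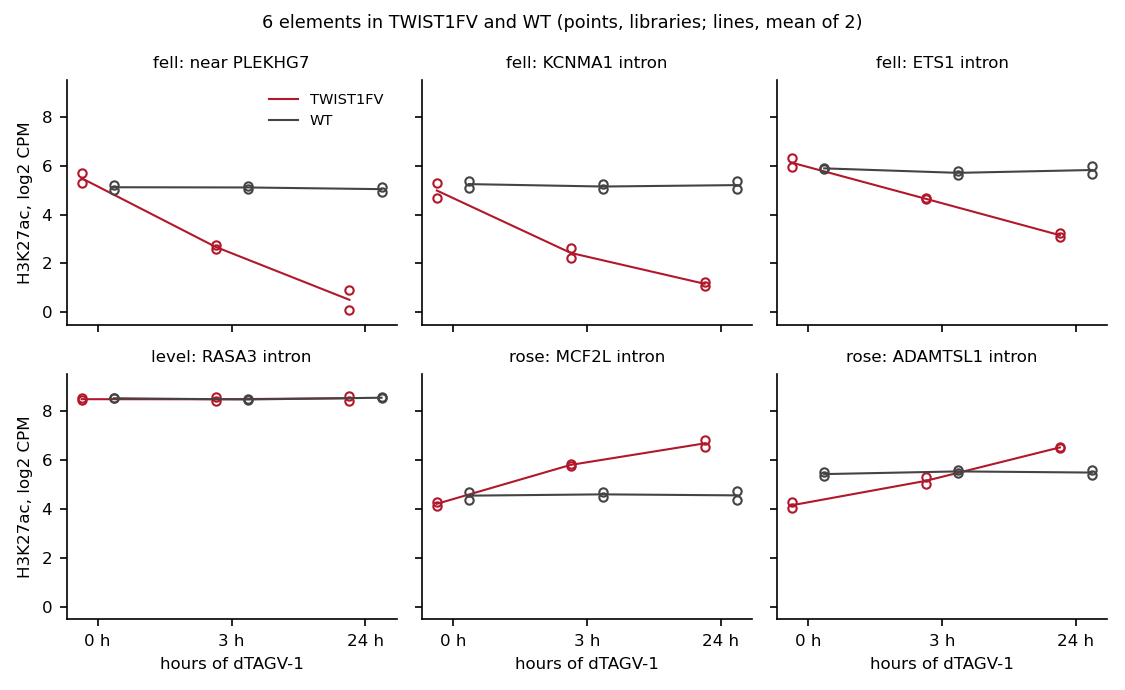
H3K27ac as log2 CPM (y axis) of 6 elements against hours of dTAGV-1 (x axis, evenly spaced and not to scale) in TWIST1FV (red) and WT (grey), with points for libraries and lines through the mean of 2. The PLEKHG7, KCNMA1 and ETS1 elements fall in TWIST1FV, MCF2L and ADAMTSL1 rise, RASA3 stays near its starting level, and the WT points stay close together.

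The median loss at the members was smaller than at distal rows with TWIST1 and no AP2a, while a similar share passed the test. At 24 h, 31.7% of those rows fell with a median log2 change of -0.999, against 35.1% and -0.53 for members. At 3 h, 14.5% fell with a median of -0.72, against 19.0% and -0.35. Rows with AP2a and no TWIST1 went the other way, with 0.694% falling at 24 h and a median of 0.38, and rows with neither had 0.782% falling and a median of 0.33. The members therefore lay between rows with TWIST1 alone and rows with AP2a alone in median change. In WT the medians of these 4 classes were between -0.01 and 0.02 at both times. The classes differ in acetylation, in GC content and in TWIST1 peak strength, and no test was made between them.

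**Figure D3:**
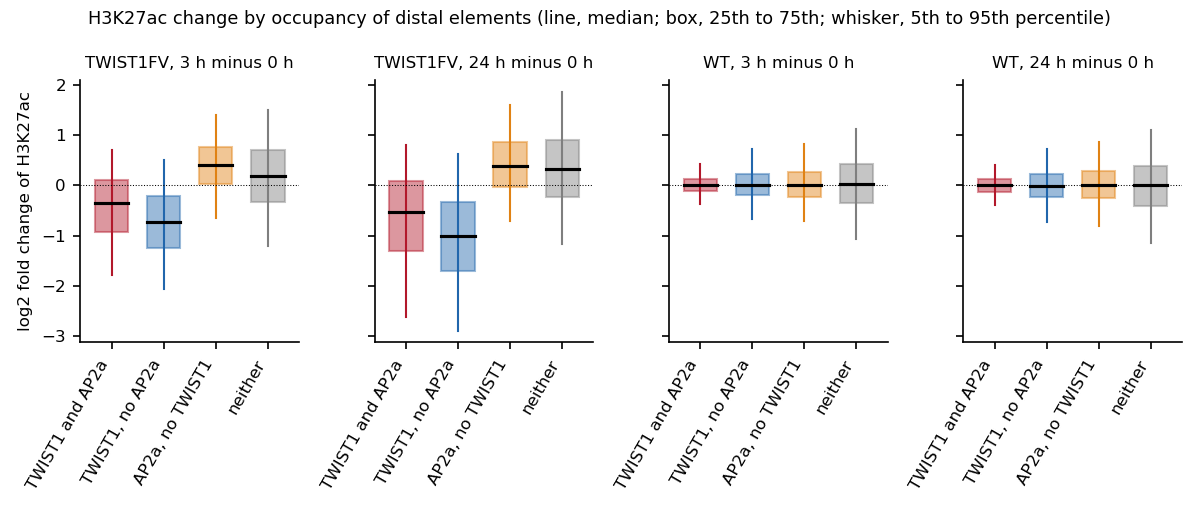
Log2 fold change of H3K27ac (y axis) in 4 classes of distal rows by occupancy (x axis) for TWIST1FV and WT at 3 h and 24 h against 0 h. Lines are medians, boxes the 25th to 75th and whiskers the 5th to 95th percentiles. In TWIST1FV at 24 h the medians are -0.53 with TWIST1 and AP2a, -0.999 with TWIST1 alone, 0.38 with AP2a alone and 0.33 with neither.

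Within ranges of like acetylation the medians kept this order. The members were divided into 4 groups of like size by mean log2 CPM, and the other rows were placed in the same ranges. At 24 h the median change of members was -0.49, -0.70, -0.63 and -0.36 from the lowest to the highest range, and that of rows with TWIST1 and no AP2a was -0.94, -1.22, -1.20 and -0.98. The share that fell was 19.0% against 20.0% in the lowest range and 39.0% against 62.6% in the highest. Within 4 such groups by GC content the medians of members were -0.80, -0.74, -0.52 and -0.20, against -1.03, -1.06, -0.80 and -0.53 for rows with TWIST1 and no AP2a. In the lowest GC range 44.8% of members fell against 32.3% of those rows, with the members the more acetylated class.

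The loss was larger in ranges of stronger TWIST1 peaks. The rule used the TWIST1 peak as present or absent, and the comparison describes these ranges without a test. In the lowest of 4 ranges of the authors' fold enrichment (2.63 to 11.6), 5.20% of tested members fell and 10.9% rose at 24 h, with a median log2 change of 0.11. In the highest range (53.8 to 271), 57.8% fell and 1.08% rose, with a median of -1.02. At 3 h the share that fell went from 0.937% through 8.71% and 28.1% to 37.9%. Rows with TWIST1 and no AP2a in the same ranges of fold enrichment had lower medians at 24 h, -0.59, -1.10, -1.54 and -1.89, against 0.11, -0.40, -0.95 and -1.02 for members. In WT at 24 h the 4 medians of members lay between -0.01 and 0.03. Across 4758 members, Spearman's rank correlation between TWIST1 fold enrichment and log2 change was -0.49 at 3 h and -0.47 at 24 h. These points share libraries and differ in depth and base composition.

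**Figure D4:**
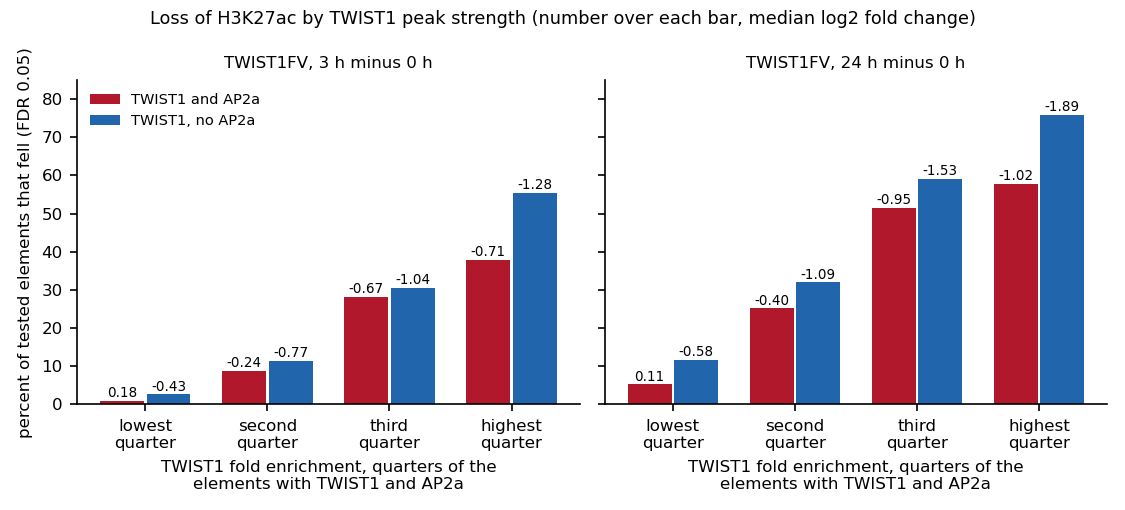
Percent of tested elements that fell in TWIST1FV at an FDR of 0.05 (y axis) by TWIST1 fold enrichment (x axis, 4 ranges that divide the elements with TWIST1 and AP2a), for those elements, in groups of like size (red) and for distal rows with TWIST1 and no AP2a in the same ranges (blue). The number above each bar is the median log2 fold change. At 24 h the red bars go from 5.20% to 57.8%.

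The 3 members with the strongest TWIST1 peaks all fell at 24 h. At chr1:219792314-219793004, in an intron and 30870 bp from RNA5SP76, counts were 480 and 449 at 0 h, 128 and 111 at 3 h, and 112 and 106 at 24 h (log2 change -1.92 ± 0.22 and -2.21 ± 0.22). In an intron of THADA (chr2:43319369-43320290) they were 806 and 949, then 243 and 234, then 172 and 112 (-1.83 ± 0.19 and -2.74 ± 0.19). Near TMEM105 (chr17:81323075-81323915) they were 284 and 227, then 210 and 108, then 136 and 48. The TMEM105 change was -1.63 ± 0.38 at 24 h, and DESeq2 gave an adjusted p of 0.0879 where edgeR gave 0.00686. Of the 3 with the strongest AP2a peaks, the IGF2BP1 element and the ERI3-IT1 element (chr1:44239522-44240022) had log2 changes of 0.09 ± 0.11 and 0.04 ± 0.16 at 24 h. The third, 15025 bp from RPS12P10 (chr5:142551242-142552107), rose from 372 and 376 counts to 596 and 534 and then 644 and 528. Its edgeR adjusted p was 0.0364 at 3 h and 0.0480 at 24 h, and leaving out any 1 of the 4 libraries of the 24 h comparison lost the call (adjusted p from 0.0824 to 0.426), as did DESeq2 (0.0734) and no filter (0.126).

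AP2a peak strength and the distance between summits varied less with the change. From the lowest to the highest of 4 ranges of AP2a fold enrichment, 38.4%, 36.8%, 34.6% and 30.8% of members fell at 24 h. The median log2 changes in these ranges were -0.708, -0.61, -0.535 and -0.331. By distance between the TWIST1 and AP2a summits the shares that fell were 35.0%, 34.8%, 34.1% and 36.6%. Members with GCCNNNGGC at the AP2a summit fell in 29.4% of cases at 24 h and the others in 37.5%. With an E-box at the TWIST1 summit 35.5% fell and without one 34.3%. The share that fell decreased with GC content, from 44.7% in the lowest range to 20.1% in the highest at 24 h, and from 33.8% to 5.33% at 3 h. In WT the medians by GC range at 24 h lay between -0.03 and 0.02. GC content and TWIST1 fold enrichment were not separated further.

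The share that fell also varied with the other binding lists, and these differences were not tested. The TWIST1 list of RS4;11, a human leukaemia cell line, overlapped 26.1% of members, against 11.0% of rows with TWIST1 and no AP2a and 18.0% of all rows. Of these members 26.3% fell at 24 h, against 38.3% of the other members. A V5 peak of tagged ALX1 in either ALX1FV replicate overlapped 616 members, of which 50.0% of those tested fell, against 32.9% of the rest. V5 peaks covered 11.6% of members in replicate 1 and 3.84% in replicate 2, against 0.654% and 0.179% of all rows. The replicate 1 list thus covered more rows of every kind, and the reason was not tested. V5 peaks of PRRX1FV overlapped 1 member and 0 members, where they overlapped only 2 and 0 of all rows. Those of MSX1FNV overlapped 32 members (0.664%) and 158 (3.28%), against 0.0235% and 0.131% of all rows. Of the 45 tested members with a composite motif at the TWIST1 summit, 20 fell at 24 h (44.4%) and 0 rose, where 35.0% of the other members and 9.49% of all rows fell. At 3 h the order of the shares was the other way, with 7 of the 45 falling against 899 of the 4713 other members (19.1%). The median log2 change was lower with the motif at both times, -0.674 against -0.345 at 3 h and -0.817 against -0.523 at 24 h. The 565 members that kept a TWIST1 peak in either TWIST1FV library at 3 h fell in 17.2% of cases at 3 h and 31.7% at 24 h, against 19.3% and 35.6% of the others. Members lacking a TWIST1 peak in 1 or both TWIST1FV libraries at 0 h fell in 5.13% of cases at 24 h and rose in 10.7%.

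Elements were also grouped by the gene with the nearest transcript start, which does not show that the gene is their target. Of 21 crest specifier genes, 8 had a member nearest to them, 25 members in all. At 24 h in TWIST1FV, 6 of the 25 fell and 0 rose, with a median log2 change of -0.13, where 35.1% of all tested members and 9.49% of all rows fell and 4.58% and 4.28% rose. Besides the ETS1 element, one in an intron 1104 bp from MSX1, a homeodomain gene (chr4:4860693-4861954), went from 206 and 305 counts to 144 and 227 and then 92 and 157 (-1.11 ± 0.29 at 24 h). The MSX1 call was lost without replicate 2 at 0 h or replicate 1 at 24 h (adjusted p = 0.0812 and 0.175). The element with the most acetylation in this list, 7039 bp from SNAI1, a gene of epithelial-mesenchymal transition (chr20:49989769-49990269), held 731 and 878 counts at 0 h and 1069 and 869 at 24 h (0.16 ± 0.14, adjusted p = 0.532). An intronic element of PAX7, a crest transcription factor (chr1:18657038-18658228), had a log2 change of -0.01 ± 0.21 and one of SOX5 (chr12:24057877-24059132) of -0.28 ± 0.26.

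Of 34 genes for factors of the face and mesenchyme, 8 had 18 members, of which 17 were tested. At 24 h 3 fell and 0 rose, and the median was -0.04, where 35.1% of all tested members and 9.49% of all rows fell. The TBX15 element, in an intron of a T-box gene of the craniofacial skeleton (chr1:118927392-118928240), went from 127 and 112 counts to 42 and 53 and then 44 and 34 (-1.30 ± 0.32 and -1.74 ± 0.33). The elements nearest ALX4, a homeodomain factor gene (chr11:44365971-44366957), and TWIST2, a relative of TWIST1 (chr2:238849197-238849975), had log2 changes of -0.45 ± 0.35 and -1.19 ± 0.46 and did not pass. At the ALX4 element the 24 h libraries held 722 and 270 counts.

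Of 35 signalling genes, 15 had 37 members, of which 12 fell and 1 rose at 24 h with a median of -0.55. Over all tested members 35.1% fell, a share close to that of the list, and over all rows 9.49% fell. The 3 members nearest PDGFRA, a receptor for platelet-derived growth factor, all fell. The most acetylated of them (chr4:54226880-54228476) held 1367 and 1751 counts at 0 h, 1060 and 1210 at 3 h, and 1276 and 1022 at 24 h (-0.55 ± 0.13), and it lost the call without replicate 2 at 0 h or at 24 h (adjusted p = 0.0791 and 0.132). An intronic element of TGFBR2, a TGF-beta receptor (chr3:30638641-30639464), went from 259 and 225 counts to 139 and 114 and then 100 and 117 (-1.28 ± 0.26). The WNT5A element, at a gene for a secreted Wnt ligand (chr3:55482865-55483365), had a change of -0.66 ± 0.18 with an adjusted p of 0.0230. That call was lost with library size alone (0.0714), with no filter (0.0546) and without any 1 of 3 libraries (0.0559 to 0.248). The BMP5 element, at a gene for a bone morphogenetic protein (chr6:55869683-55870183), was the 1 that rose, from 28 and 44 counts to 104 and 100 (1.41 ± 0.35), and it lost the call without replicate 1 at 0 h (0.105). The BMP7 element of highest level (chr20:57262098-57262914) had a change of -0.61 ± 0.26 and did not pass, with 965 and 470 counts at 24 h.

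Of 25 matrix and adhesion genes, 9 had 12 members, of which 6 fell and 0 rose at both times, with medians of -1.10 at 3 h and -1.06 at 24 h. Over all tested members 19.0% fell at 3 h and 35.1% at 24 h, and over all rows 4.28% and 9.49%. Both elements nearest ITGB1, the common integrin beta subunit, fell. One of them, in a UTR (chr10:32938108-32939054), went from 579 and 798 counts to 310 and 294 and then 304 and 270 (-1.13 ± 0.17 and -1.36 ± 0.17), with WT at 525 to 819. In an intron of ITGA4, an integrin alpha subunit gene (chr2:181462630-181463130), counts went from 261 and 251 to 114 and 108 and then 91 and 73 (-1.77 ± 0.24 at 24 h). Downstream of a start of COL3A1, a fibrillar collagen gene (chr2:189015316-189015816), they went from 226 and 238 to 58 and 106 and then 80 and 68 (-1.76 ± 0.28). The element 23115 bp upstream of POSTN, which encodes periostin (chr13:37621328-37622590), had a change of -0.92 ± 0.22, and its adjusted p without replicate 2 at 24 h was 0.0509. The VCAN element, at a proteoglycan gene (chr5:83472942-83474257), had a change of -0.37 ± 0.19 and did not pass. Of 18 neuronal and glial genes, ELAVL4 and TUBB3 had 1 member each. The ELAVL4 element (chr1:50197141-50198556) fell by 1.37 ± 0.29 on the log2 scale, with an adjusted p of 0.00371 by edgeR and 0.0586 by DESeq2. The TUBB3 element (chr16:89923823-89925345) had a change of 0.26 ± 0.40. Over all rows tested the median at 24 h was 0.03, and the gene lists were drawn up with earlier results of these data known.

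No member passed the test after depletion of ALX1 in cells with ALX4, of PRRX1 or of MSX1. In ALX1FV 0 of 4733 members passed at 3 h or 24 h, where 0 of all rows did, and 34 and 52 had an unadjusted p under 0.05. In PRRX1FV 0 of 4726 passed, where 0 of all rows passed at 3 h and 0.000827% at 24 h, with 139 and 204 at an unadjusted p under 0.05. In MSX1FNV 0 of 4723 passed, where 0.00179% and 0.00448% of all rows did, with 129 and 253 at an unadjusted p under 0.05. DESeq2 also called 0 members in each of these lines at each time. The median log2 change of the members lay between -0.04 and 0.00 in these 6 contrasts. With the clone as a block, as the replicates of ALX1FV and PRRX1FV were different clones, the count stayed at 0 in both lines.

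In ALX1FV ALX4-, where ALX1 was depleted in cells lacking ALX4, 14 members fell and 0 rose at 24 h among 4710 tested, against 0.0279% of all rows in either direction (0.027% lower and 0.00082% higher). At 3 h 0 members passed, where 0 of all rows did, with 309 at an unadjusted p under 0.05 and 0 by DESeq2. With the clone as a block 62 members passed at 24 h, 60 of them lower. The count was 25 with counts halved and 3 with no filter on low counts. It was 31 without replicate 1 at 0 h and 0 without either 24 h library, where 1 library stands alone at that time. The median log2 change of the members was -0.08 at 24 h, and 535 had an unadjusted p under 0.05 and a lower level, against 92 with a higher one.

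The 2 members with the lowest p lie next to each other between genes on chromosome 11, 11201 and 10374 bp from ENSG00000255451. At chr11:44456807-44457719 counts in ALX1FV ALX4- were 351 and 368 at 0 h, 151 and 255 at 3 h, and 110 and 124 at 24 h (log2 change -1.48, adjusted p = 0.000807). At chr11:44457840-44458340 they were 250 and 212, then 98 and 180, then 62 and 68 (-1.67, adjusted p = 0.000913). Both overlap the same TWIST1 peak. The calls were lost without replicate 1 at 24 h (0.275 for both) or replicate 2 (0.0588 and 0.0839). In ALX1FV cells, which keep ALX4, the log2 changes at 24 h were -0.41 and -0.33 and did not pass, and the difference between the lines was not tested.

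The other 12 lay near LAMA3, a laminin gene (chr18:23772235-23773173, -1.34), CEP68, a centrosome gene (chr2:65062790-65063820, -1.10), YAP1, a co-activator of the Hippo pathway (chr11:102151739-102152554, -1.36), PAX7 (chr1:18730134-18731919, -0.98), AOPEP, CREB5, NOBOX, ADAMTSL1, PLEKHG7, ENSG00000250576, ENSG00000222000 and ENSG00000223593. These 12 were chosen after their values were seen, apart from the ADAMTSL1 and PLEKHG7 elements described above. At CEP68 the counts went from 348 and 417 at 0 h to 196 and 218 at 3 h and then 131 and 194. V5 peaks of ALX1FV overlapped 8 of the 14, where 616 of all 4821 members had such a peak in either replicate. V5 peaks of ALX1FV ALX4- overlapped the same elements except those near ENSG00000223593 and ADAMTSL1. In TWIST1FV at 24 h, 10 of the 14 fell, among them CEP68 (-3.17) and YAP1 (-3.44), the ADAMTSL1 element rose (2.38), and 3 did not pass. Over all tested members 35.1% fell and 4.58% rose in that contrast, and over all rows 9.49% and 4.28%. The 14 were picked by their fall in ALX1FV ALX4-, and a link between the responses was not tested. At that ADAMTSL1 element counts in ALX1FV ALX4- were 108 and 135 at 0 h, 80 and 56 at 3 h, and 50 and 22 at 24 h (-1.63, adjusted p = 0.0389), a fall where TWIST1FV rose.

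Before depletion, the members were less acetylated in the ALX1FV ALX4-, PRRX1FV and MSX1FNV lines than in WT. Distal rows with TWIST1 and no AP2a were lower too, with median log2 differences of -0.45, -0.19 and -0.15 in that order. In rows with AP2a and no TWIST1 the medians were 0.19, 0.13 and 0.14. The members and the rows with TWIST1 alone were chosen by TWIST1 peaks of WT at 0 h, the reference of this comparison. At 0 h, 1228 of 4806 members were lower and 264 higher in ALX1FV ALX4- than in WT, with a median log2 difference of -0.32, where 8.47% of all rows differed (5.3% lower and 3.17% higher). In PRRX1FV 606 were lower and 60 higher (median -0.26), where 2.65% of all rows differed (1.8% and 0.855%). In MSX1FNV 411 were lower and 102 higher (median -0.19), where 2.6% of all rows differed (1.51% and 1.09%). In ALX1FV 38 were lower and 28 higher (median -0.11), where 0.412% of all rows differed (0.154% and 0.258%), and in TWIST1FV 6 were lower and 14 higher (median 0.07), where 0.0744% did (0.0384% and 0.0361%). Scaling to library size alone gave 905 lower and 389 higher in ALX1FV ALX4-, 378 and 120 in PRRX1FV, 265 and 175 in MSX1FNV, and 24 and 43 in ALX1FV, where the majority thus turned. That scaling moved the median of all rows by 0.16, 0.14 and 0.11 in the first 3 lines. Under it the members' medians were -0.15, -0.13 and -0.08 where those of all rows were 0.18, 0.17 and 0.14. These counts leaned on single 0 h libraries. In ALX1FV ALX4- the 1492 members that differed became 853 without its replicate 1 and 979 without WT replicate 1, with 701 and 818 of them lower. In PRRX1FV 666 became 216 and 210 without its replicates 1 and 2, and 248 and 368 without WT replicates 1 and 2. In MSX1FNV 513 became 72 without its replicate 2, and 212 and 271 without WT replicates 1 and 2. In ALX1FV 66 became 43 without its replicate 2, and 11 and 19 without WT replicates 1 and 2. In TWIST1FV 20 became 6 and 7 without its replicates 1 and 2, and 4 and 2 without WT replicates 1 and 2. Lower members remained the majority in ALX1FV ALX4-, PRRX1FV and MSX1FNV in each of these fits. WT and TWIST1FV chromatin carried a mouse O9-1 spike-in and the other lines did not, so the line, its clones and this difference in preparation cannot be told apart.

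**Figure D5:**
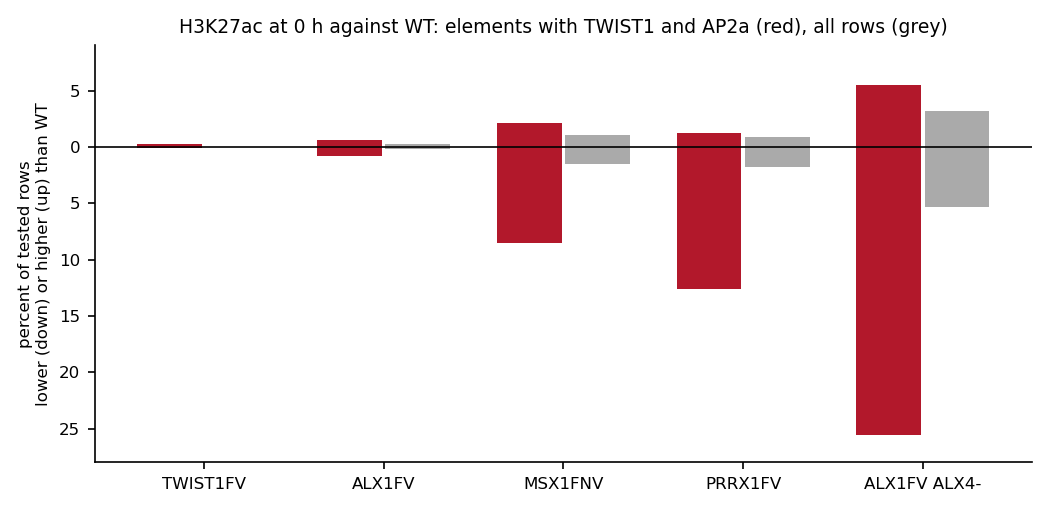
Percent of tested rows that were lower (drawn downward) or higher (drawn upward) than WT at 0 h at an FDR of 0.05 (y axis) in 5 edited lines (x axis), for the elements with TWIST1 and AP2a (red) and for all rows (grey). In ALX1FV ALX4-, 25.6% of the elements were lower and 5.49% higher, against 5.30% and 3.17% of all rows. Of distal rows with TWIST1 and no AP2a, which are not drawn, 17.3% were lower and 2.91% higher in that line.

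Among the members, the share lower in ALX1FV ALX4- than in WT was larger in ranges of stronger TWIST1 peaks, again without a test. From the lowest to the highest of the 4 ranges of TWIST1 fold enrichment, 8.76%, 17.0%, 34.6% and 41.7% were lower than WT. Rows with TWIST1 and no AP2a had like shares lower in the same ranges, 7.455%, 17.5%, 32.5% and 46.3%, with the members the more acetylated class. The median log2 differences of those rows were more negative in each range, at -0.281, -0.531, -0.694 and -0.707. Those of members were -0.011, -0.222, -0.477 and -0.476. Members with a V5 peak of ALX1FV were lower in 40.8% of cases and the others in 23.3%. TWIST1 peaks were still present at 96.4% and 93.8% of members in the 2 ALX1FV ALX4- libraries at 0 h. The shares were 74.9% and 69.1% of rows with TWIST1 and no AP2a, and 23.2% and 19.6% of all rows. Of the 25 members near crest specifiers 13 were lower and 0 higher, and of the 37 near signalling genes 12 were lower and 2 higher. Of the 18 near face and mesenchyme factors 7 were lower and 4 higher. Over all tested members 25.6% were lower and 5.49% higher, and over all rows 5.3% and 3.17%. The PAX7 element of highest level was lower, with a log2 difference of -1.34 ± 0.17 (edgeR adjusted p = 2.63e-08), as was the TBX15 element (-2.11), whereas the TGFBR2 element was higher by 0.98 (adjusted p = 0.00169). The WNT5A and BMP7 elements were lower (-1.58 and -1.27). The TUBB3 element was lower in ALX1FV ALX4- (-2.14), PRRX1FV (-2.46) and MSX1FNV (-1.71). Of the 58 members with a pair of E-boxes 5 bp apart at the TWIST1 summit, 18 were higher and 3 lower in ALX1FV ALX4-, against 246 higher and 1225 lower of the 4748 others tested, a split noticed after the values were seen.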

How the data were processed

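H3K27ac ChIP-seq was analysed in 36 libraries, 6 lines by 3 times with 2 replicates, and peak lists gave the occupancy. The deposited count tables hold the authors' whole-number counts of reads over 1 set of ATAC rows, and 76.7% to 81.5% of counts of at least 20 were even in each library, as if both mates of a pair were counted. The authors' peak lists give fold enrichment, a ratio to background, and −log10 p and q values as deposited. Per the submitters' processing notes, the tools were Bowtie2 2.4.1, SAMtools 1.10, MACS2 2.2.7.1 and deepTools 3.5.0, on hg38. Library totals were 5137169 to 9173063 counts, which limits precision at weak rows. A mouse spike-in of WT and TWIST1FV was not used here, so a change in total acetylation is not measured.

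Each line was fitted over all rows in edgeR 4.0.16 under R 4.3.3 (glmQLFit and glmQLFTest), using TMM factors of 0.933 to 1.06, filterByExpr and Benjamini-Hochberg adjustment over all rows tested, at an FDR of 0.05. Differences between lines came from 1 fit of the 36 libraries. The fits were tested on simulated data. Rows, peaks, GENCODE release 44 starts and motifs were joined with Python 3.11.15, numpy 2.4.6, pandas 2.3.3, scipy 1.17.1, pysam 0.24.0 and samtools 1.23.1, and plots were made with matplotlib 3.10.9. Alternatives were DESeq2 1.42.0, library size alone, no filter, halved counts, the replicate number as a block, each library left out, and other member rules. Those for 24 h against 3 h and the left-out 0 h libraries between lines were chosen after seeing the data.

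The members, gene lists and splits were chosen with earlier results of these data known. Named elements are the 5 (3 h) or 6 (24 h) called members in each direction with the largest change in TWIST1FV above the median level and with both replicates moving alike, up to 2 calls per direction in other lines, up to 4 per gene list by p and 2 by level, the 3 highest by level and by each peak strength, and the composite element. Some elements that this rule names are not reported here. Replicate numbers pair libraries by clone in ALX1FV, ALX1FV ALX4- and PRRX1FV, from the labels, with correlations of same-numbered deviations of 0.253 to 0.264, 0.0273 to 0.0367 and 0.0182 to 0.0208. In the other lines no label gives a pairing. The same correlations were 0.0766 to 0.140 in TWIST1FV, 0.0779 to 0.0921 in MSX1FNV and 0.035 to 0.042 in WT.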

Additional observations from a re-analysis of the deposited data

Results flagged for a closer look

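The change with dTAGV-1 differed between TWIST1FV and WT, by edgeR's interaction term at an FDR of 0.05, in 706 members at 3 h and 1407 at 24 h. The values below are the log2 change at 24 h in TWIST1FV minus that in WT, for the named elements that passed.

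The most negative differences were at the elements near PLEKHG7 (-5.09 and -4.83), ENSG00000273098 (-4.89), ENSG00000216307 (-4.85), CASC6 (-4.62), ENSG00000273792 (-4.50), STEAP1B (-4.05) and KCNMA1 (-3.96). DSCAM stood at -3.155, NYAP2 at -3.154 and ETS1 at -2.95. Of the strongest TWIST1 peaks, THADA stood at -2.66, RNA5SP76 at -2.27 and TMEM105 at -1.795. Matrix and adhesion elements stood at -1.83 (COL3A1), -1.66 (ITGA4), -1.49 (ITGB1) and -0.89 (POSTN). Elements near factors and signalling genes stood at -1.70 (TBX15), -1.40 (TGFBR2), -1.38 (MSX1) and -0.57 (PDGFRA). ELAVL4 stood at -1.33, CDC42EP4 at -1.30 and SYN3 at -0.887.

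Positive differences were at LINC02205 (3.75), ENSG00000286568 (3.05), MCF2L (2.48), ADAMTSL1 (2.31) and IGF2BP2 (1.76). LINC02205 and ENSG00000286568 held at most 40 and 32 counts in the WT libraries. No explanation of these differences was tested.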

How the results depend on the processing

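With library size alone the majority turned in ALX1FV against WT at 0 h, from 38 members lower and 28 higher to 24 lower and 43 higher, and it also turned without ALX1FV replicate 1 (32 lower and 44 higher) and without WT replicate 1 (4 lower and 7 higher). The replicate block, which stands for clones in some lines and for numbers alone in TWIST1FV, WT and MSX1FNV, gave 1819 members changed in TWIST1FV at 3 h where the fit without it gave 989. It gave 747 for 24 h against 3 h, 1281 for TWIST1FV against WT at 3 h, 62 in ALX1FV ALX4- at 24 h, and 1 and 7 in MSX1FNV at 3 h and 24 h. It moved no other count of members by over 1.5 times. DESeq2 gave 271 for 24 h against 3 h. In ALX1FV ALX4- at 24 h halved counts gave 25 and no filter gave 3. The median log2 change in TWIST1FV was -0.26 and -0.40 at 3 h and 24 h with library size alone, which moved the median of all rows by 0.09 and 0.13, and -0.42 and -0.60 for members over 5 kb from a start.

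Leaving out 1 library at a time gave 530 to 1048 members in TWIST1FV at 3 h, 1363 to 1738 at 24 h and 71 to 398 for 24 h against 3 h. It gave 0 to 1 in WT at each time, 0 to 2 and 0 to 31 in ALX1FV ALX4- at 3 h and 24 h, and 0 to 1 in MSX1FNV at 24 h. The difference between TWIST1FV and WT ranged from 470 to 656 at 3 h and from 1085 to 1378 at 24 h. At 0 h against WT the ranges were 2 to 7 in TWIST1FV, 11 to 76 in ALX1FV, 853 to 1060 in ALX1FV ALX4-, 210 to 368 in PRRX1FV and 72 to 391 in MSX1FNV. The median in TWIST1FV ranged from -0.48 to -0.26 at 3 h and from -0.66 to -0.42 at 24 h. A library left alone in its group is assumed to vary like the other groups. Of 47 calls at named elements, 33 held in the same direction under every alternative run. The causes of these moves were not tested. Depth limits the weakest elements most, and 2 libraries a group limit every count.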
